A study of Saccharomyces cerevisiae with 26 samples.

Results

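The genes described here encode peroxiredoxins, thioredoxins, a thioredoxin reductase, a glutathione peroxidase homologue and superoxide dismutases of baker's yeast. The 10 genes AHP1, TSA1, TSA2, PRX1, TRX1, TRX2, TRR1, GPX2, SOD1 and SOD2 were taken by name. All 10 had at least 1 spot on the arrays, out of 5606 genes in all. The samples were 26 arrays of 2 colours on total RNA from Saccharomyces cerevisiae in galactose chemostats, which are cultures held at steady state by a constant feed. Cy3 marked RNA of the culture at t=0, and Cy5 marked RNA of the culture at 1 time after a glucose pulse of 2 g/l (14 arrays, 3 to 240 min) or 0.2 g/l (12 arrays, 2 to 150 min). Galactose feeding was common to both pulses, and the strain is not given in the sources used here. By its title, the series addressed the response of steady cultures to a passing change of carbon source.

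Superoxide dismutases turn superoxide, a by-product of respiration, into hydrogen peroxide and oxygen. Peroxiredoxins reduce that peroxide with a reactive cysteine. In the cytosol, thioredoxins return the cysteine to its reduced state, and thioredoxin reductase recharges the thioredoxins with electrons from NADPH. Several of these genes are known targets of the transcription factor Yap1, which is activated by peroxide. Sod2 and Prx1 work in mitochondria, whereas Sod1, Tsa1, Tsa2, Ahp1, Trx1 and Trx2 are mainly cytosolic.

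Values are log2 ratios to the culture at t=0, on which 1 unit is a 2-fold change. The direction (Cy5 over Cy3) and the log base are not stated with the values. The direction was taken from the labels and from the genes that check them. Base 2 was assumed, and every fold value rests on it. Spots of a gene were averaged. Arrays were grouped by time into windows called early (3 to 10 min after 2 g/l, 4 arrays; 2 to 10 min after 0.2 g/l, 5 arrays), middle (15 to 45 min, 4 arrays for each pulse), late (90 to 150 min, 3 arrays for each pulse) and last (180 to 240 min, after 2 g/l, 3 arrays). Each time after a pulse was measured on 1 array, so an SD here is a spread between time points. The p-values measure this spread only, since the labels name no repeat culture, and any true change inside a window widens it. The fit takes the arrays of a window as independent. Where they shared a culture or an extract of t=0 RNA, the p-values can be too small. The labels do not say how many cultures were pulsed or whether the arrays of a pulse shared 1 extract of t=0 RNA, so an effect of dose cannot be told apart from one of culture. No array had its dyes exchanged, so a dye effect or an offset of the t=0 sample cannot be told apart from a change shared by all times of a pulse. A gene was called where limma gave an adjusted p under 0.05 after Benjamini-Hochberg adjustment over the 5372 genes tested.

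The labels were checked on genes known to answer glucose. The direction of the ratio was taken in part from these genes, so they are no separate test of it. In the middle window after 2 g/l GAL1, for galactokinase, was at -3.00 ± 0.53 (SD, n = 4), and PDC1, for pyruvate decarboxylase, at 2.52 ± 0.12. After 0.2 g/l the corresponding means were -0.67 for GAL1 (adjusted p = 0.0879 by limma) and 1.09 for PDC1. Arrays carried 7627 to 9765 spots with a value. The arrays of 0.2 g/l at 45, 30 and 90 min were least like the mean of the other arrays of their window across genes, with a Pearson r of 0.123, 0.365 and 0.443, against 0.523 to 0.889 for the other 23. Of the 10 genes, 9 had a value on every array, and TRR1 had one on 18 of 26. TRR1 therefore missed the minimum of 2 values in every window and was not among the genes tested.

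After 2 g/l glucose some members fell and some rose later. From 15 to 45 min PRX1, SOD2, TSA1 and TRX2 were lower than at t=0. From 180 min AHP1, SOD1, TRX1 and TRX2 were higher. Over all windows of the pulse together, 8 of the 9 members tested departed from t=0 in the moderated F test, while 58.5% of all genes did. The exception was TSA2. The TSA2 value was an adjusted p of 0.614. The call of GPX2 in this test (adjusted p = 0.0345) ended without the 3 min array (0.0558), 7 min (0.0755), 10 min (0.0995), 90 min (0.0644), 120 min (0.0685), 150 min (0.0526) or 180 min (0.0513), and TSA2 was called without the 45 min array of 0.2 g/l (adjusted p = 0.0114). After 0.2 g/l 4 of 9 were called (GPX2, SOD1, TRX1 and TRX2), against 52.3% of all genes. The calls of SOD1 (adjusted p = 0.00537) and TRX1 (0.0113) held without each single array. That of TRX2 (0.0234) ended without 0.2 g/l at 45 min (0.0506) or 150 min (0.0661), and that of GPX2 (0.0402) without 2 min (0.0512), 6 min (0.0525), 15 min (0.0562), 20 min (0.209), 45 min (0.0679) or 150 min (0.0509). Without the array of 45 min AHP1 (0.0271), TSA1 (0.0119) and TSA2 (0.0413) were called, and without that of 30 min SOD2 (0.0488).

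**Figure D1:**
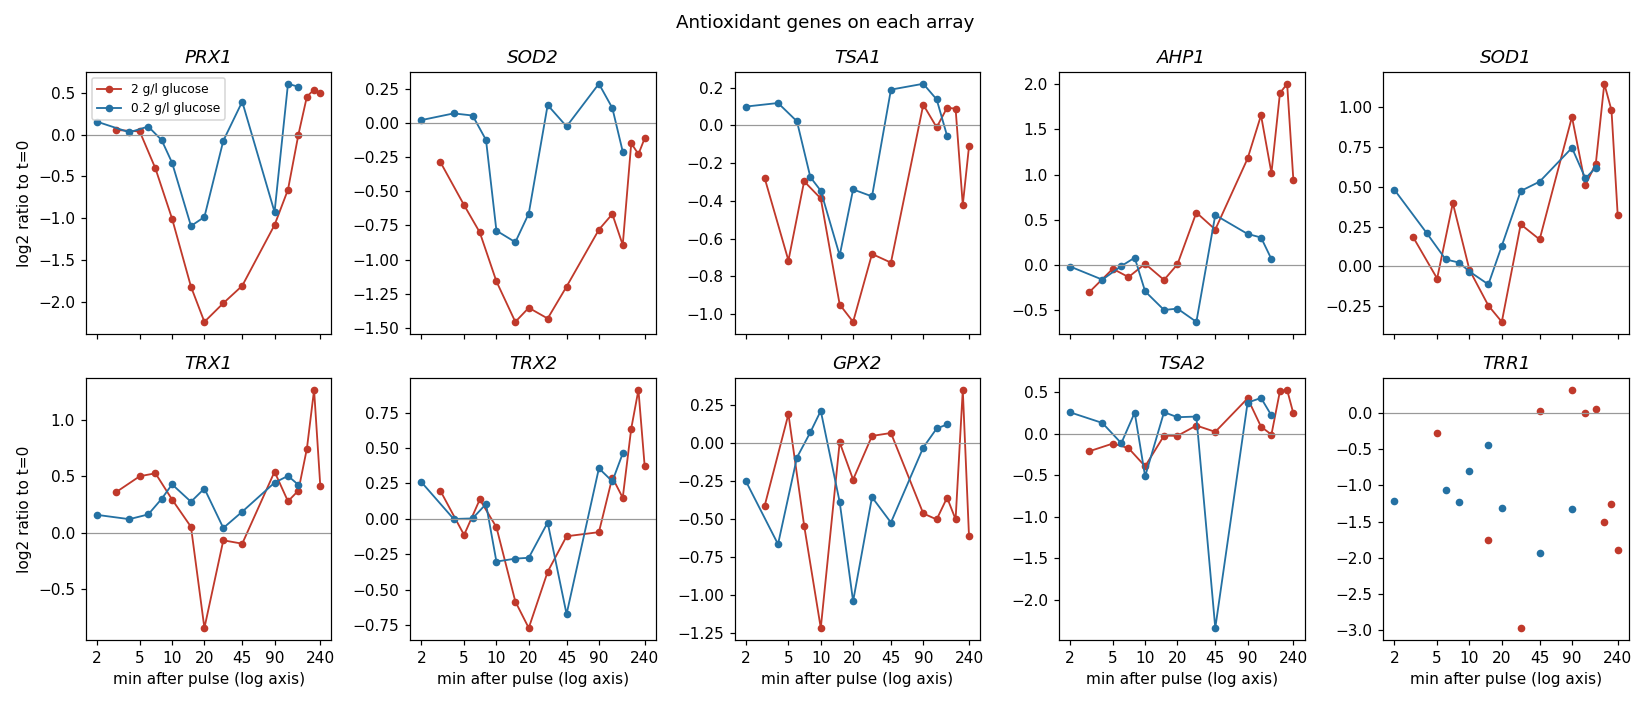
Log2 ratio to t=0 of each gene (vertical axis, own scale per panel) against minutes after the pulse (log axis), 1 point per array, after 2 g/l (red) or 0.2 g/l (blue) glucose; TRR1 has no joining line because 8 arrays lacked a value. PRX1 reached -2.24 at 20 min after 2 g/l and AHP1 reached 2.00 at 210 min.

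PRX1 (YBL064C), for the mitochondrial peroxiredoxin, had the lowest window mean after 2 g/l of the 9 members tested. After 2 g/l it was at 0.06, 0.04, -0.41 and -1.01 at 3, 5, 7 and 10 min. It was at -1.82, -2.24, -2.02 and -1.81 at 15, 20, 30 and 45 min. The late values were -1.08, -0.66 and -0.00 at 90, 120 and 150 min, and the last were 0.45, 0.54 and 0.49 at 180, 210 and 240 min. All 4 middle values lay below every other value of the pulse. The middle mean was -1.97 ± 0.20 (SD, n = 4, limma adjusted p = 2.69e-06), a 3.93-fold lower level than at t=0. Between the early and the middle window PRX1 fell by 1.64 (adjusted p = 0.0135), a call that ended without the 20 min array (adjusted p = 0.0587). It then rose by 1.39 to the late window (adjusted p = 0.032). That rise lost its call without the 15 min array (adjusted p = 0.0554), 20 min (0.109), 30 min (0.063), 120 min (0.0961) or 150 min (0.246).

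SOD2 (YHR008C), for the manganese superoxide dismutase of the mitochondrial matrix, fell sooner and stayed low longer. It was at -0.29, -0.60, -0.80 and -1.16 in the early window after 2 g/l, at -1.46, -1.35, -1.43 and -1.20 in the middle, at -0.78, -0.67 and -0.89 in the late and at -0.15, -0.23 and -0.11 in the last. SOD2 was below 0 on 14 of 14 arrays of the pulse. Its means were -0.71 ± 0.37 (SD, n = 4, limma adjusted p = 0.00142), -1.36 ± 0.12 (SD, n = 4, adjusted p = 1.49e-06) and -0.78 ± 0.11 (SD, n = 3, adjusted p = 0.00497) in the first 3 windows, and each of these calls held without each single array. The last mean was -0.16 ± 0.06. The 2 spots of SOD2 had a median absolute difference of 0.17 over the arrays.

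TSA1 (YML028W), for the main cytosolic peroxiredoxin, was lower from the first minutes until 45 min. It was at -0.28, -0.72, -0.30 and -0.39 early after 2 g/l and at -0.95, -1.04, -0.68 and -0.73 in the middle. From 90 min on it lay between -0.42 and 0.11. The early mean was -0.42 ± 0.20 (SD, n = 4, limma adjusted p = 0.00892), and this call ended on omission of the 5 min array (adjusted p = 0.0689). The middle mean was -0.85 ± 0.17 (SD, n = 4, adjusted p = 1.26e-05), and the rise from there to the late window was 0.91 (adjusted p = 0.00624); both held without each single array. TSA2 (YDR453C), its paralog, showed no such fall, with middle values of -0.02, -0.03, 0.10 and 0.02. Its window means after 2 g/l ran from -0.23 ± 0.12 (early) to 0.43 ± 0.16 (last), and limma called it in none of them (adjusted p = 0.427 in the last). Without the 45 min array of 0.2 g/l, which enters only through the shared spread, the last mean was called (adjusted p = 0.0221).

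AHP1 (YLR109W), for a thiol peroxidase that favours organic peroxides, rose instead, and late. After 2 g/l it was at -0.30, -0.04, -0.13 and 0.01 in the early window and at -0.16, 0.01, 0.58 and 0.39 in the middle. It was at 1.18, 1.65 and 1.02 at 90, 120 and 150 min and at 1.90, 2.00 and 0.94 at 180, 210 and 240 min. Every value from 90 min on exceeded every earlier one. The late mean was 1.28 ± 0.33 (SD, n = 3, limma adjusted p = 0.00014) and the last mean 1.61 ± 0.59 (SD, n = 3, adjusted p = 4.88e-05), a 3.06-fold higher level than at t=0, and both held without each single array. The 2 spots of AHP1 had a median absolute difference of 0.09. The step from the middle to the late window was 1.08 (adjusted p = 0.0214), which ended without the 15 min array (adjusted p = 0.0761), 20 min (0.0779), 120 min (0.142) or 150 min (0.0541).

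SOD1 (YJR104C), for the copper and zinc superoxide dismutase, also rose late. It was at 0.18, -0.08, 0.40 and -0.02 early after 2 g/l and at -0.25, -0.35, 0.26 and 0.17 in the middle. From 90 to 240 min it was at 0.94, 0.51, 0.64, 1.15, 0.98 and 0.32. Only the value at 240 min fell within the range of the first 45 min. The late mean was 0.70 ± 0.22 (SD, n = 3, limma adjusted p = 0.00448) and the last mean 0.82 ± 0.44 (SD, n = 3, adjusted p = 0.00306). The late call ended on omission of the 90 min array (adjusted p = 0.0871) and the last call without that of 210 min (0.0742). In the late window after 2 g/l SOD1 was called higher and SOD2 lower.

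The thioredoxins TRX1 (YLR043C) and TRX2 (YGR209C) were higher in the last window after 2 g/l, and TRX2 was lower in the middle. TRX1 was at 0.36, 0.50, 0.52 and 0.29 in the early window after 2 g/l, at 0.05, -0.84, -0.07 and -0.10 in the middle and at 0.74, 1.26 and 0.41 in the last. Its early mean of 0.42 ± 0.11 (SD, n = 4, limma adjusted p = 0.0111) lost its call without the 7 min array (adjusted p = 0.0582). Its middle mean of -0.24 ± 0.41 was not called (adjusted p = 0.123), and the value at 20 min stood far below the other 3. The late mean of 0.40 ± 0.13 was called without the 20 min array of 2 g/l (adjusted p = 0.0278) or 210 min (0.0387). TRX2 was at -0.58, -0.77, -0.37 and -0.12 in the middle window, with a mean of -0.46 ± 0.28 (SD, n = 4, adjusted p = 0.00279) that stayed called without each single array. In the last window TRX1 was at 0.81 ± 0.43 (SD, n = 3, adjusted p = 0.00173) and TRX2 at 0.64 ± 0.27 (SD, n = 3, adjusted p = 0.00591). Both last calls ended without the 210 min array, where the adjusted p was 0.0784 for TRX1 and 0.127 for TRX2.

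TRR1 (YDR353W), for the thioredoxin reductase of the cytosol, was measured thinly. After 2 g/l its 10 values ran from -2.97 at 30 min to 0.32 at 90 min, with -1.50, -1.26 and -1.89 in the last window. After 0.2 g/l all 8 of its values were below 0, between -1.93 and -0.44. The minimum was then lowered to 1 value per window, so that 5548 genes were tested. For 2 g/l limma gave means of -1.57 in the middle (adjusted p = 0.00481) and -1.55 in the last window (adjusted p = 0.0261), and did not call the late window (0.878). The early window held 1 value only, -0.28 at 5 min. After 0.2 g/l limma gave -1.08 early (adjusted p = 0.0271) and -1.23 in the middle (0.0232), both called lower. TRR1 was already at -1.21 at 2 min, and its middle minus early difference was -0.15 (limma adjusted p = 0.888). A dye effect or an offset of the t=0 sample cannot be told apart from a fall after the pulse here. The calls of TRR1 were not tested without single arrays. The late window held 1 value only, -1.32 at 90 min, so the lack of a call there shows no return to t=0. The 3 middle values after 2 g/l were -1.76, -2.97 and 0.03, far apart. The 3 last values all lay below 0, on arrays where TRX1 and TRX2 lay above it. TRR1 had 1 spot.

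GPX2 (YBR244W), for a glutathione peroxidase homologue that uses thioredoxin, had no steady course. Its early values after 2 g/l were -0.42, 0.19, -0.54 and -1.22, and the mean of -0.50 ± 0.58 (SD, n = 4, limma adjusted p = 0.028) lost its call without the 7 min array (adjusted p = 0.0884) or 10 min (0.316). Only 1 of its spots had a value at 10 min, and the early call also ended with quantile normalization (limma adjusted p = 0.0508). In the late window GPX2 was at -0.46, -0.50 and -0.36. Its 3 spots followed each other weakly, with a Pearson r of 0.248 to 0.642 between pairs over the arrays, and its median absolute spot difference was 0.28 to 0.31.

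Counted by window after 2 g/l, 1 member was higher and 3 were lower early, while 16.8% and 20.8% of all genes were. In the middle window 0 were higher and 4 lower, against 21.7% and 22.1%, and limma also gave 0 higher at an unadjusted p under 0.05. In the late window 2 were higher and 1 lower, against 9.03% and 5.51%, and in the last 4 were higher and 0 lower, against 5.96% and 2.42%, with 0 lower at an unadjusted p under 0.05. Without the array of 210 min the last count was 1, AHP1, while SOD1, TRX1 and TRX2 had means of 0.73, 0.58 and 0.51. The shares of all genes given here are from the fit with every array, so that count has no share beside it. The median of the 9 members was -0.23, -0.24, 0.12 and 0.49 in these 4 windows, beside -0.04, -0.03, 0.02 and 0.05 over all genes tested.

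**Figure D2:**
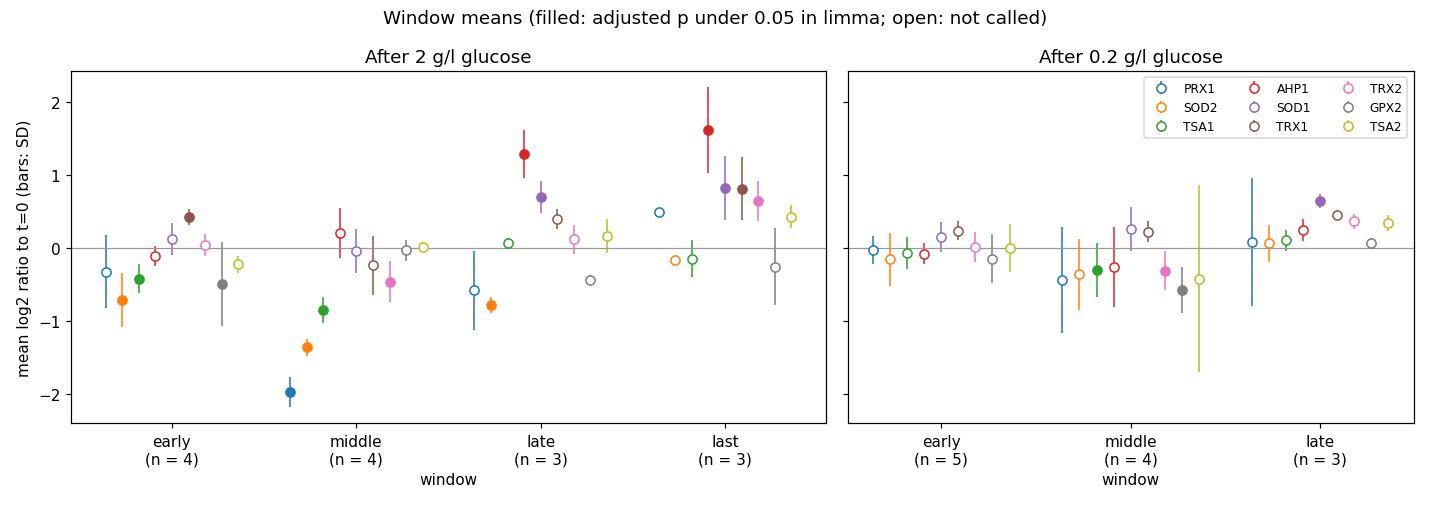
Mean log2 ratio to t=0 of 9 genes in each window (points; bars are the SD between the arrays of a window, n under each window), left after 2 g/l and right after 0.2 g/l; filled points passed limma at an adjusted p under 0.05 and open ones did not. PRX1 in the middle window (-1.97) and AHP1 in the last window (1.61) lie farthest from 0 after 2 g/l.

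Windows of the same pulse were set against each other. The t=0 level drops out of such a difference if the arrays shared 1 reference extract, which the labels do not state. Between the middle and the last window after 2 g/l, 7 of 9 members were lower in the middle, and 15.7% of all genes were. PRX1 differed by -2.47 (SE 0.36, limma adjusted p = 0.00011), a 5.53-fold change, and AHP1 by -1.41 (SE 0.26, adjusted p = 0.000697). SOD2 differed by -1.19 (adjusted p = 0.00102), TRX2 by -1.10 (adjusted p = 0.000241), TRX1 by -1.05 (adjusted p = 0.000547), SOD1 by -0.86 (adjusted p = 0.00437) and TSA1 by -0.70 (adjusted p = 0.00689). These 7 calls held without each single array. The 2 members that were not called were GPX2, with a difference of 0.22 (adjusted p = 0.596), and TSA2, with -0.41 (adjusted p = 0.493). TSA2 was called without the 45 min array of 0.2 g/l (adjusted p = 0.0499), which enters this comparison only through the shared spread. The median difference was -1.05 for the members and -0.03 for all genes. Between the middle and the late window 4 members rose (PRX1, AHP1, TSA1 and SOD1), against 3.46% of all genes, and the rise of SOD1 was 0.74 (adjusted p = 0.0449). It lost its call in 11 of the 26 fits without 1 array, of which 5 left out an array of the windows compared: 15 min (adjusted p = 0.138), 20 min (0.162), 90 min (0.14), 120 min (0.0845) and 150 min (0.151). The other 6 left out 0.2 g/l at 4, 6, 8, 20, 120 or 150 min (0.0512 to 0.0571). TRX1 and TRX2 (0.64 and 0.58) gained a call there, TRX1 without 2 g/l at 210 min (adjusted p = 0.0342) or 240 min (0.0438) or 0.2 g/l at 45 min (0.0453), and TRX2 without 2 g/l at 45 min (0.0357) or 0.2 g/l at 45 min (0.038). From the early to the middle window 1 member fell, PRX1, against 1.60% of all genes. TRX1 differed by -0.66 and was called without 2 g/l at 15 min (adjusted p = 0.042), 210 min (0.026) or 240 min (0.0408) or 0.2 g/l at 30 min (0.0463) or 45 min (0.0351).

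The course after 0.2 g/l was followed in the same way. In the early window limma called 0 members, with 1 at an unadjusted p under 0.05, against 29.8% of all genes in either direction. PRX1 was at -1.10 and -0.99 at 15 and 20 min, at -0.07 at 30 min and at 0.39 at 45 min. SOD2 was at -0.79, -0.87 and -0.66 at 10, 15 and 20 min and at 0.13 and -0.03 at 30 and 45 min. Both genes were low at 15 and 20 min and higher at 30 and 45 min, on the arrays that were least like their window across genes (r = 0.365 and 0.123). The middle means were -0.44 ± 0.72 for PRX1 (SD, n = 4, limma adjusted p = 0.142) and -0.36 ± 0.48 for SOD2 (adjusted p = 0.0685). With the arrays of 30, 45 and 90 min left out, only those of 15 and 20 min remained in the middle window. The means were then -1.04 for PRX1 (adjusted p = 0.000797) and -0.77 for SOD2 (adjusted p = 0.00213), both called. The arrays left out were picked on these same data, so these calls add no support of their own. PRX1 was also called without the 45 min array alone (adjusted p = 0.0235). SOD2 was also called without the 10 min array (adjusted p = 0.045), 30 min (0.0204) or 45 min (0.0318).

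In that window 3 members were lower and 0 higher, against 24.4% and 15.1% of all genes, and limma gave 0 higher at an unadjusted p under 0.05. TSA1 was at -0.69, -0.34, -0.38 and 0.19, GPX2 at -0.39, -1.04, -0.36 and -0.52, and TRX2 at -0.28, -0.28, -0.03 and -0.67. Their means were -0.30 ± 0.36 (SD, n = 4, adjusted p = 0.0482), -0.58 ± 0.32 (adjusted p = 0.0124) and -0.31 ± 0.27 (adjusted p = 0.0377). The call of GPX2 ended without the 20 min array (adjusted p = 0.103), on which its 3 spots read -0.18, -1.08 and -1.86. With the single spot of most values its mean was -0.28 (adjusted p = 0.151). The call of TRX2 ended without 15 min (0.0781), 20 min (0.0788) or 45 min (0.212). TSA1 lost its call in 20 of 26 fits, of which 3 left out its own arrays of 15, 20 or 30 min (adjusted p = 0.119 to 0.313) and 17 an array of another window (0.0511 to 0.0554). AHP1 was at -0.50, -0.48, -0.63 and 0.55, and was called lower without the 45 min array (-0.54, adjusted p = 0.0109). TSA2 was at 0.26, 0.20 and 0.20 and then at -2.34 at 45 min, the lowest of its 26 values.

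The late window after 0.2 g/l had 1 member higher, SOD1, and 0 lower, against 3.61% and 3.93% of all genes, with 0 lower at an unadjusted p under 0.05. SOD1 was at 0.74, 0.55 and 0.62, a mean of 0.64 ± 0.10 (SD, n = 3, limma adjusted p = 0.0145) that lost its call without the 90 min array (adjusted p = 0.11) or 150 min (0.0911). TRX1 was at 0.44, 0.50 and 0.42 (adjusted p = 0.0541), and was called without 2 g/l at 20 min (0.0206), 210 min (0.0284) or 240 min (0.0396) or 0.2 g/l at 30 min (0.0479) or 45 min (0.0498). It was above 0 on 12 of 12 arrays of this pulse, already at 0.16 at 2 min. PRX1 was at -0.93, 0.61 and 0.57, with the array of 90 min far from the others. AHP1 was at 0.34, 0.30 and 0.06. Between windows of this pulse limma called 0 members from early to middle, with 1 at an unadjusted p under 0.05, against 6.22% of all genes. From middle to late it called 0, with 3 at an unadjusted p under 0.05, against 1.90%. There AHP1 (0.77, adjusted p = 0.0272), TSA1 (0.57, 0.026) and TRX2 (0.56, 0.0362) were called without the 45 min array. TRX2 (0.0509 with all arrays) was also called without 0.2 g/l at 2 min (0.0454), 10 min (0.0449) or 30 min (0.0308) or 2 g/l at 10 min (0.0492), 45 min (0.0483) or 210 min (0.0495).

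The pulses were compared window by window. Early, limma called 0 members as different, with 2 at an unadjusted p under 0.05, against 0.484% of all genes. In the middle window 3 members were lower after 2 g/l than after 0.2 g/l, against 6.25% of all genes. Against 8.53% of all genes 0 members were higher, with 1, GPX2, at an unadjusted p under 0.05. PRX1 differed by -1.53 (SE 0.34, adjusted p = 0.00525), SOD2 by -1.0 (SE 0.22, adjusted p = 0.0052) and TSA1 by -0.55 (SE 0.17, adjusted p = 0.0332). The first 2 held without each single array. TSA1 lost its call without 2 g/l at 15 min (adjusted p = 0.0848) or 20 min (0.109), or without 0.2 g/l at 20 min (0.0503), 30 min (0.0503) or 45 min (0.0976). AHP1 was called higher (0.74, adjusted p = 0.0228) without 0.2 g/l at 45 min, and TRX1 lower (-0.46, 0.0489) without 2 g/l at 210 min. With the 0.2 g/l arrays of 30, 45 and 90 min left out, only 15 and 20 min remained in the middle window of that pulse. PRX1 then differed by -0.93 (adjusted p = 0.0267), SOD2 by -0.59 (adjusted p = 0.0911) and TSA1 by -0.34 (adjusted p = 0.245).

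In the late window AHP1 was higher after 2 g/l by 1.05 (SE 0.28, limma adjusted p = 0.0427), against 1.14% of all genes. The 3 values after 2 g/l lay above the 3 after 0.2 g/l. The call ended without any 1 of the 6 arrays compared, at 90 min (adjusted p = 0.123), 120 min (0.208) and 150 min (0.0512) after 2 g/l and 90 min (0.0765), 120 min (0.0786) and 150 min (0.171) after 0.2 g/l. It also ended without 7 arrays of other windows, those of 7, 20 and 45 min after 2 g/l and of 2, 4, 6 and 8 min after 0.2 g/l (0.0507 to 0.0558). With the time as a block the difference was the same and the adjusted p was 0.131. SOD2 differed by -0.84 in that window (adjusted p = 0.0725) and was called without 0.2 g/l at 10 min (adjusted p = 0.043). SOD1 differed by 0.06 (SE 0.22, adjusted p = 0.943).

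Both pulses were sampled at 8 shared times from 10 to 150 min. PRX1 and SOD2 were lower after 2 g/l at 8 of 8 of them, with a median difference of -0.99 for PRX1 and -0.73 for SOD2. TSA1 and TRX1 were lower at 7 of 8, with medians of -0.20 and -0.18. AHP1 was higher at 7 of 8, with a median of 0.66, the exception being 45 min (-0.16). SOD1, TRX2 and TSA2 were each lower at 5 and higher at 3, and GPX2 was split 4 and 4. The late minus middle change differed between pulses for 0 members by limma, with 1, GPX2, at an unadjusted p under 0.05, and 0.521% of all genes were called there.

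**Figure D3:**
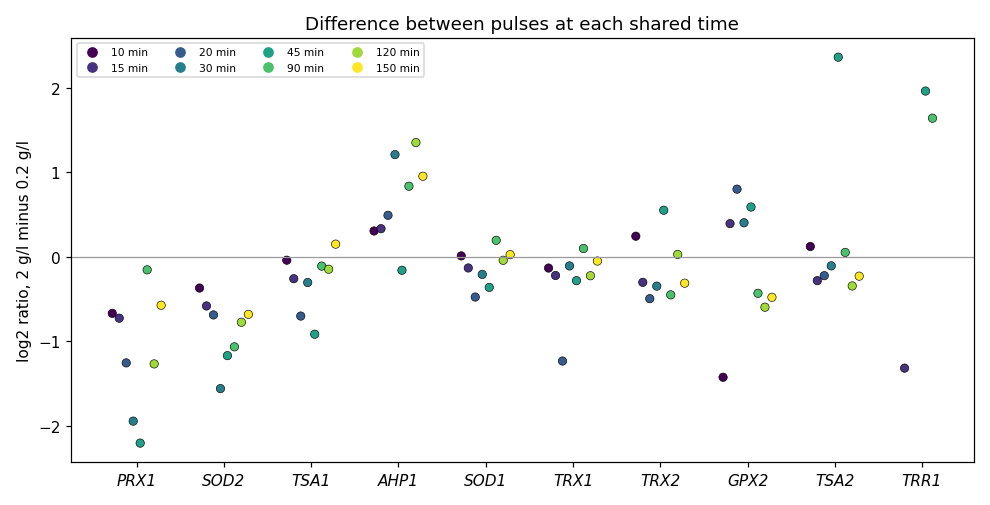
Log2 ratio after 2 g/l minus that after 0.2 g/l (vertical axis) for each gene at each time sampled after both pulses (points, coloured by time, placed left to right from 10 to 150 min). All 8 points of PRX1 and of SOD2 lie below 0 and 7 of 8 points of AHP1 above it; the TSA2 point at 2.36 is that of 45 min.

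Among the members, PRX1 and SOD2 ran most alike over the 26 arrays (Pearson r = 0.797, Spearman rho = 0.694), followed by TRX1 with TRX2 (r = 0.732, rho = 0.566), TSA1 with SOD2 (r = 0.73, rho = 0.69) and AHP1 with SOD1 (r = 0.705, rho = 0.651). AHP1 and SOD2 gave r = 0.054. These are descriptions over time points that follow each other within a pulse, and the arrays are not independent, so no p is given. Over 5197 other genes, the course nearest to PRX1 was that of MSC1 (r = 0.95), followed by AIM41 and GOR1, for glyoxylate reductase (r = 0.937 and 0.925). Nearest to SOD2 was NTH1, for neutral trehalase (r = 0.914), then NNR1 and CAB2 (r = 0.908 and 0.904). Nearest to TSA1 were ACO1, for aconitase, SDH2, for a subunit of succinate dehydrogenase, and MRPL7, for a mitochondrial ribosomal protein (r = 0.872, 0.871 and 0.863). TRX2 was nearest to SDH5, CPR6 and PRE4 (r = 0.94, 0.91 and 0.894). TRX1 was nearest to HSP10, for a mitochondrial chaperonin, TIM10 and MRPL37 (r = 0.905, 0.883 and 0.877), but r was 0.747, 0.656 and 0.685 without the 2 arrays on which TRX1 was farthest from its median. SOD1 was nearest to AIM32, HOR7 and RFS1 (r = 0.855, 0.853 and 0.851). The nearest genes were MRPL15, GRE2 and ARC15 for AHP1 (r = 0.814, 0.80 and 0.795) and SLX1, YNL146W and YGL230C for GPX2 (r = 0.789, 0.736 and 0.72). Without the 2 farthest arrays of each member, r was 0.72, 0.73 and 0.76 for AHP1 and 0.70, 0.61 and 0.62 for GPX2. For TSA2 the nearest genes MUD1, SNF11 and ENV7 (r = 0.944, 0.942 and 0.936) fell to r = 0.639, 0.64 and 0.668 without its 2 farthest arrays. The nearest genes depended on the measure. Ranked by Spearman rho, none of those named recurred for AHP1, TRX1 or TSA2, and all did for TSA1. Some did for PRX1, TRX2, GPX2, SOD1 and SOD2.

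Other genes of the pathway were read from 8 lists of 66 genes, of which 65 had a spot and 63 were tested. In the middle window after 2 g/l 8 were higher and 26 lower, while 21.7% and 22.1% of all genes were, and the median over all genes was -0.03. Of the 9 tested genes for NADPH supply 6 were lower and 0 higher, with a list median of -0.95. IDP2, for cytosolic isocitrate dehydrogenase, was at -2.45 ± 0.12 (SD, n = 4, limma adjusted p = 6.91e-07), SOL4, a phosphogluconolactonase paralog, at -2.38 ± 0.39, GND2, for the minor phosphogluconate dehydrogenase, at -1.98 ± 0.28, and ALD6, for cytosolic aldehyde dehydrogenase, at -1.42 ± 0.64. ZWF1, the entry enzyme of the pentose phosphate pathway, was not tested for want of values. Of 16 glutathione and glutaredoxin genes 7 were lower and 2 higher, with a median of -0.16. ECM4, for a glutathione transferase, was at -1.47 ± 0.15 (adjusted p = 4.05e-06), GTT1, for another, at -0.92 ± 0.34, GTO3 at -0.90 ± 0.15 and GTT2 at -0.78 ± 0.55, while GRX3, for a glutaredoxin of iron sensing, was at 0.72 ± 0.13 (adjusted p = 6.31e-05).

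The counts of the lists that follow stand beside 21.7% of all genes higher and 22.1% lower in that window, and no list was tested against these shares. Of the 3 heme enzymes 2 were lower, with a median of -0.44. CTT1, for cytosolic catalase, was at -1.53 ± 0.52 (SD, n = 4, limma adjusted p = 0.00386) and CCP1, for the cytochrome c peroxidase of mitochondria, at -0.44 ± 0.14 (adjusted p = 0.00176) in that window. Of 8 other thiol peroxidases and thioredoxin partners 4 were lower and 1 higher, with a median of -0.40. HYR1, the peroxide sensor of Yap1, was at -0.74 ± 0.40 (adjusted p = 0.000881), MXR2, for a mitochondrial methionine sulfoxide reductase, at -0.72 ± 0.22 (adjusted p = 0.0153, but 0.0866 without the 20 min array), and TRR2, for the mitochondrial thioredoxin reductase, at -0.47 ± 0.22 (adjusted p = 0.00129). MXR1, for the cytosolic counterpart of MXR2, was at 0.61 ± 0.35 (adjusted p = 0.00124). Of 9 genes for the metal supply of the dismutases 1 was higher and 2 lower, with a median of -0.19. CCS1, for the copper chaperone of Sod1, was at 0.56 ± 0.20 (adjusted p = 0.00091) while SOD1 itself was at -0.04 ± 0.30. The 2 lower genes were SMF1 and CTR2, and the call of CTR2 ended without the 20 min array (adjusted p = 0.0664) or 45 min (0.0518).

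Of 7 regulator genes 2 were lower and 0 higher in the middle window after 2 g/l, with a median of -0.04. The shares of all genes there, also for the lists below, were 22.1% lower and 21.7% higher. YAP1 was at -0.43 ± 0.12 (SD, n = 4, limma adjusted p = 0.0103) and CAD1, its paralog, at -0.65 ± 0.09 (adjusted p = 0.0159, but 0.0503 without the 20 min array and 0.0608 without 30 min). Of 6 Yap1 targets of other function 3 were higher and 1 lower, with a median of 0.61 and CYS3, for cystathionine lyase, at 1.24 ± 0.19 (adjusted p = 0.0003), ATR1, for a multidrug transporter, at 1.19 ± 0.46 and OYE2, for an NADPH oxidoreductase, at 0.59 ± 0.22. OYE3, its paralog, was at -1.24 ± 0.34 (adjusted p = 0.0303, but 0.0788 without 15 min, 0.0815 without 20 min and 0.111 without 30 min). Of 5 genes for enzymes that take electrons from thioredoxin 1 was higher and 2 lower, with a median of -0.20. MET16, for the reductase of sulfate assimilation, was at 0.89 ± 0.30 (adjusted p = 7.76e-05). RNR1, for the large subunit of ribonucleotide reductase, was at -1.45 ± 0.21 (adjusted p = 0.00137) and was called lower in all 7 windows, but not in the last after 2 g/l without the 210 min array (adjusted p = 0.0511), nor in the late after 0.2 g/l without the 150 min array (0.118). No comparison between windows or between pulses called RNR1. A dye effect or an offset of the t=0 sample therefore cannot be told apart from a change after the pulse here.

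In the last window after 2 g/l 6 pathway genes were higher and 5 lower, while 5.96% and 2.42% of all genes were. MXR1 was at 0.89 ± 0.43 (SD, n = 3, limma adjusted p = 0.00191), TRX3, for the mitochondrial thioredoxin, at 0.84 ± 0.45 (adjusted p = 0.00922), GRX5, for a mitochondrial glutaredoxin, at 0.77 ± 0.42 (adjusted p = 0.00258) and GTT1 at 0.61 ± 0.38 (adjusted p = 0.00922). These 4 calls ended without the 210 min array (adjusted p = 0.0784, 0.223, 0.098 and 0.243), as did those of TRR2 (0.188) and CCP1 (0.155), also higher. FRE1 (0.114), SKN7 (0.337) and TKL1 (0.744) were called lower and lost their calls without that array too. The other genes called lower were YCF1 and RNR1. In the middle window after 0.2 g/l 6 were higher and 21 lower, against 15.1% and 24.4% of all genes, among them IDP2 at -1.22 ± 0.76 (SD, n = 4, adjusted p = 0.000805) and GND2 at -1.11 ± 0.31 (adjusted p = 2.07e-05).

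**Figure D4:**
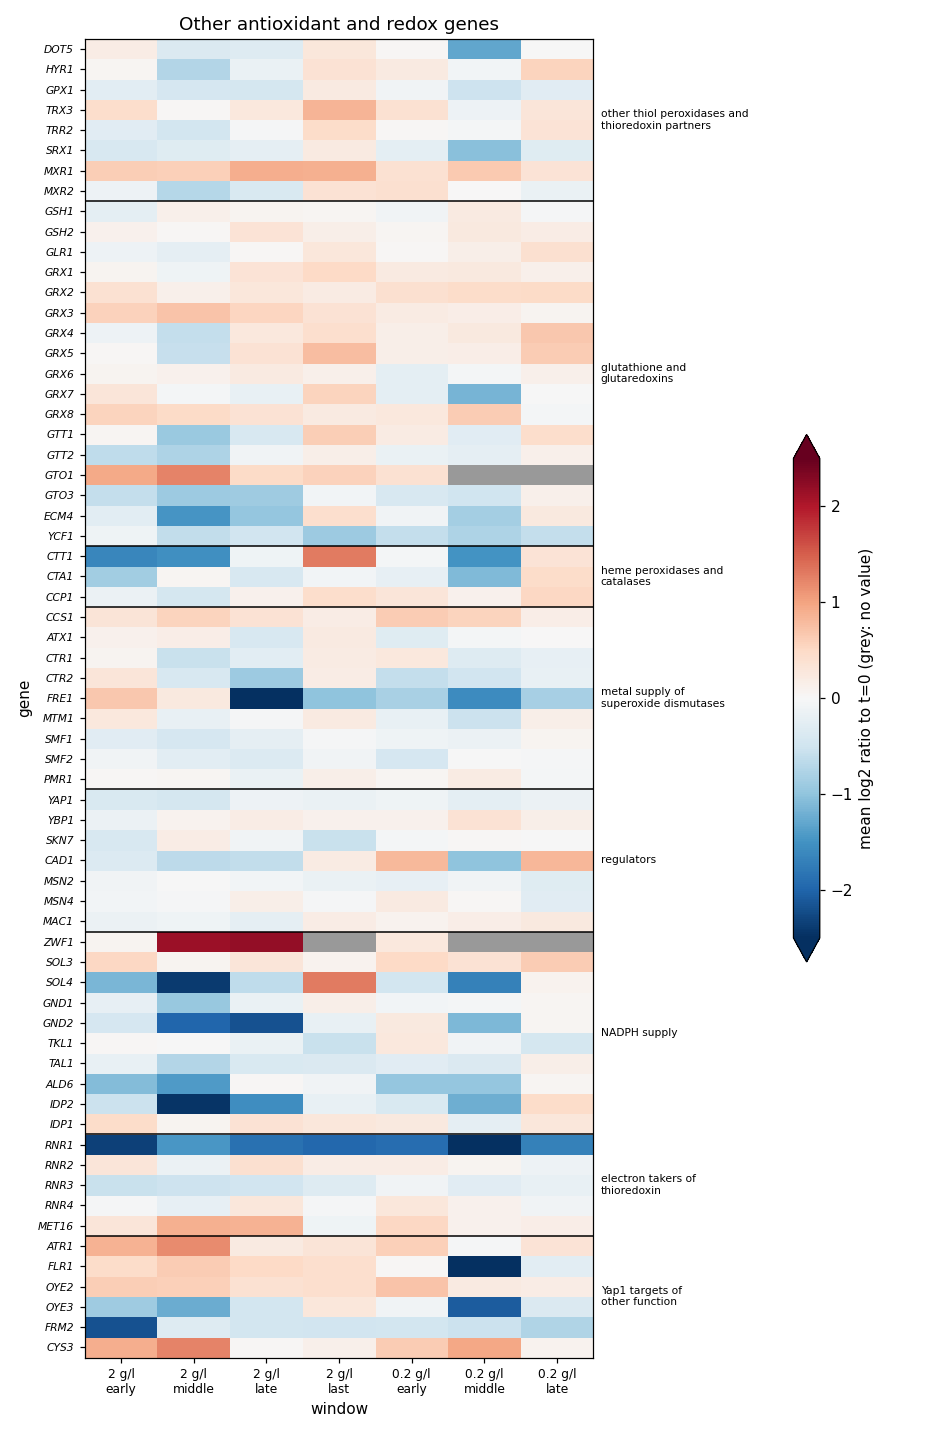
Mean log2 ratio to t=0 (colour, scale at right, values past its ends take the end colour; grey means no value) of 65 other redox genes (rows, grouped by list) in the 7 windows (columns). IDP2 (-2.45) and SOL4 (-2.38) are among the lowest in the middle window after 2 g/l, and RNR1 is below 0 in all 7 windows.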

How the data were processed

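The deposited table holds ratios per spot, read as log2, for 26 arrays of 2 colours. Per the labels, Cy3 held the culture at t=0 and Cy5 the culture at a time after the pulse. The table states neither the direction nor the log base. Cy5 over Cy3 and base 2 were taken. Image software, normalization and spot filters: not given in the sources used here. Column medians lay between -0.118 and 0.028. Of 10752 spots, 6834 were paired with 1 gene and 3918 with none, and all 5606 genes matched the yeast annotation (assembly R64, used for names only). The number of arrays limits the precision.

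Spots of a gene were averaged. Genes with at least 2 values in each of 7 windows were fitted with limma 3.58.1 in R 4.3.3 (lmFit on window means, eBayes, two-sided, Benjamini-Hochberg over 5372 genes, threshold 0.05). The fit was tested on simulated data. The members, lists, windows and alternatives were chosen with earlier results of these data known. The text names all 10 members, and for each member tested the 3 genes of highest Pearson r over at least 24 arrays. Of the lists it names some of the called genes in the windows described and leaves others out, also some with a larger absolute estimate. The alternatives were median centring, quantile normalization, the median or a single spot of a gene, other minimums of values, the arrays of 1 pulse alone, time as a block, and leaving out 3 arrays or each array in turn. Python 3.11.15 with pandas 2.3.3, numpy 2.4.6 and matplotlib 3.10.9 was used.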

Additional observations from a re-analysis of the deposited data

Results flagged for a closer look

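Of 37 sets of 4 or 5 values of a member within a window, of which chance flags about 1 in 20, 4 held an array far from the others. TSA2 stood at -2.34 at 45 min after 0.2 g/l, and AHP1 at 0.55 on the same array. TRX1 stood at -0.84 at 20 min after 2 g/l. SOD2 stood at -0.79 at 10 min after 0.2 g/l, below the other 4 early values and near those of 15 and 20 min.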

How the results depend on the processing

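Of 162 member results 47 were called. Under 10 alternatives and 26 fits without 1 array, 26 of them kept their call in every one, 21 lost it in at least 1, 30 others gained one, and 0 reversed. The cause was not tested. Quantile normalization moved the count of called members from 3 to 5 (late, 2 g/l), 3 to 0 (middle, 0.2 g/l), 1 to 3 (late, 0.2 g/l), 1 to 2 (late, between pulses) and 0 to 1 (middle to late, 0.2 g/l). Using the arrays of 1 pulse alone gave 1 (early, 0.2 g/l), 1 (middle, 0.2 g/l) and 2 (late, 0.2 g/l), and a minimum of 1 value gave 1 (early, 0.2 g/l), where TRR1 entered. From early to middle after 2 g/l, 1 became 2 with median centring, quantile normalization or complete genes, and 3 with a single spot. Complete genes gave 1 from middle to late after 0.2 g/l. Without the arrays of 0.2 g/l at 30, 45 and 90 min the counts were 0 (late, 0.2 g/l), 1 (middle, between pulses), 2 (late, between pulses), 3 (early to middle, 2 g/l), 1 (early to middle, 0.2 g/l) and 2 (middle to late, 0.2 g/l). Counts over all genes moved too, so these shifts are not particular to the members. Over the main fit and the 10 alternatives, 669 to 1443 genes were called (late, 2 g/l), 1453 to 2249 (middle, 0.2 g/l) and 256 to 1299 (late, 0.2 g/l). The ranges were 32 to 654 (late, between pulses), 92 to 309 (early to middle, 2 g/l) and 0 to 972 (middle to late, 0.2 g/l).

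The labels give no replicate numbers, so the pulses were paired by shared time alone. With time as a block the count of members that differed between pulses was 0 in the late window, and TSA1 was at an adjusted p of 0.0771 in the middle.

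Leaving out 1 array gave counts of 2 to 4, 4 to 4, 2 to 4 and 1 to 5 in the windows after 2 g/l, and of 0 to 0, 0 to 5 and 0 to 2 after 0.2 g/l. Between pulses they were 0 to 0, 2 to 4 and 0 to 2. Between windows after 2 g/l they were 0 to 2, 1 to 6 and 7 to 8, and after 0.2 g/l 0 to 0 and 0 to 3, with 0 to 0 for the pulse difference. Over all windows they were 7 to 9 and 2 to 5. The counts of all genes in these fits are not given here, so these ranges cannot be read as particular to the members. Dim spots cannot be told from bright ones in these ratios.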
